A study of Saccharomyces cerevisiae with 4 samples.

Results

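Meiosis and sporulation genes are the genes of meiotic recombination, chromosome synapsis, spore membrane growth and spore wall assembly. A list of 50 of them, written by function but with earlier results of these data known, was looked up in the probe set annotation. Of the 5343 genes measured, 48 were members. MEI5 and SAE3, which help to load the recombinase Dmc1, were not measured under these names. In budding yeast these genes are kept silent or low during growth. They are switched on in waves when a diploid that carries both mating types, MATa and MATα, meets a nonfermentable carbon source and nitrogen starvation: the inducer Ime1 acts with Ume6 on early genes of recombination and synapsis, and Ndt80 on middle genes of the divisions and spore formation, which Sum1 otherwise represses.

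Expression was measured with 4 Affymetrix Yeast Genome 2.0 arrays, 2 of nps1-13 and 2 of the wild type (WT). Both strains were pre-grown in glucose medium (YPD) and held for 4 h in rich medium with ethanol and glycerol (YPEG), a respiratory condition with nitrogen in supply. The paper's array methods mention no shift in temperature. The nps1-13 strain is BYI-3, a MATa/α diploid homozygous for nps1-13, a temperature-sensitive allele of the gene for the ATPase of the RSC chromatin-remodeling complex, and for met15Δ0. WT is BY4743, a MATa/α diploid heterozygous for met15Δ0 and lys2Δ0; both strains are listed as homozygous for his3Δ1, leu2Δ0 and ura3Δ0. Whether the 2 arrays of each strain stand for separate cultures is not given in the sources used here, and the p-values thus measure only the spread between these arrays, which may be technical.

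The markers of the nps1-13 arrays went against the listed MATa/α genotype. HMRA1, the probe set of the a1 transcript, which in MATa/α cells gives the partner of α2 in the repressor that permits meiosis, had a signal of 0.9 and 6.1 on the nps1-13 arrays, against 1599 and 1896.1 on the WT arrays. All 5 α-specific genes measured were higher, with signals that summed to 14836 and 14471 on the nps1-13 arrays, against 1681 and 1450 on the WT arrays. The 8 genes that a1 and α2 repress in diploids were also all higher, with sums of 13106 and 12498.5 against 4376 and 3872 in WT. By the test given below, 42.7% of all genes were higher and 34.6% lower. Among the 7 a-specific genes, which are not counted as going against the listed genotype, none was higher and 2 were lower (sums of 980.2 and 982.1 against 2080.5 and 1804 in WT). In addition LEU2, listed as deleted in both strains, had 4445.6 and 4225.4 on the nps1-13 arrays, against 14 and 37.1 on the WT arrays. MET15, named MET17 in RefSeq and listed as homozygous for the deletion in nps1-13 only, went with the listed genotype. It had 17.7 and 16 in nps1-13, against 4038.6 and 3882.7 in WT. HIS3, listed as his3Δ1 in both strains, and LYS2 had signals above 1000 on every array. In these arrays the nps1-13 allele and this difference in cell type markers cannot be told apart.

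Signals are the authors' values per probe set, in arbitrary units on a linear scale. Their medians were 2158 and 2024 on the nps1-13 arrays and 3051 and 2770 on the WT arrays, so every log2 fold change (nps1-13 over WT) is given with each array centred on its median unless another scale is named; this added 0.48 to each deposited value. Genes were called with limma at a Benjamini-Hochberg adjusted p under 0.05 over all 5343 genes.

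The meiosis and sporulation genes mostly gave low signals in both strains. Their mean signals ran from 11.35 to 8238 on the nps1-13 arrays, with a median of 181.7, and from 8.7 to 3292 on the WT arrays, with a median of 260.4. A signal depends on the probes as well as on the transcript, so signals are compared between strains and not between genes. The mean was under 100 in both strains for 12 members, namely MEI4, MER1, MEK1, SPO74, SSP1, SPO75, SPO77, SPO19, CDA1, CDA2, SPS2 and LOH1. Background and transcript are not told apart at such levels, and their fold changes carry standard errors of 0.23 to 0.52 on the log2 scale.

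**Figure D1:**
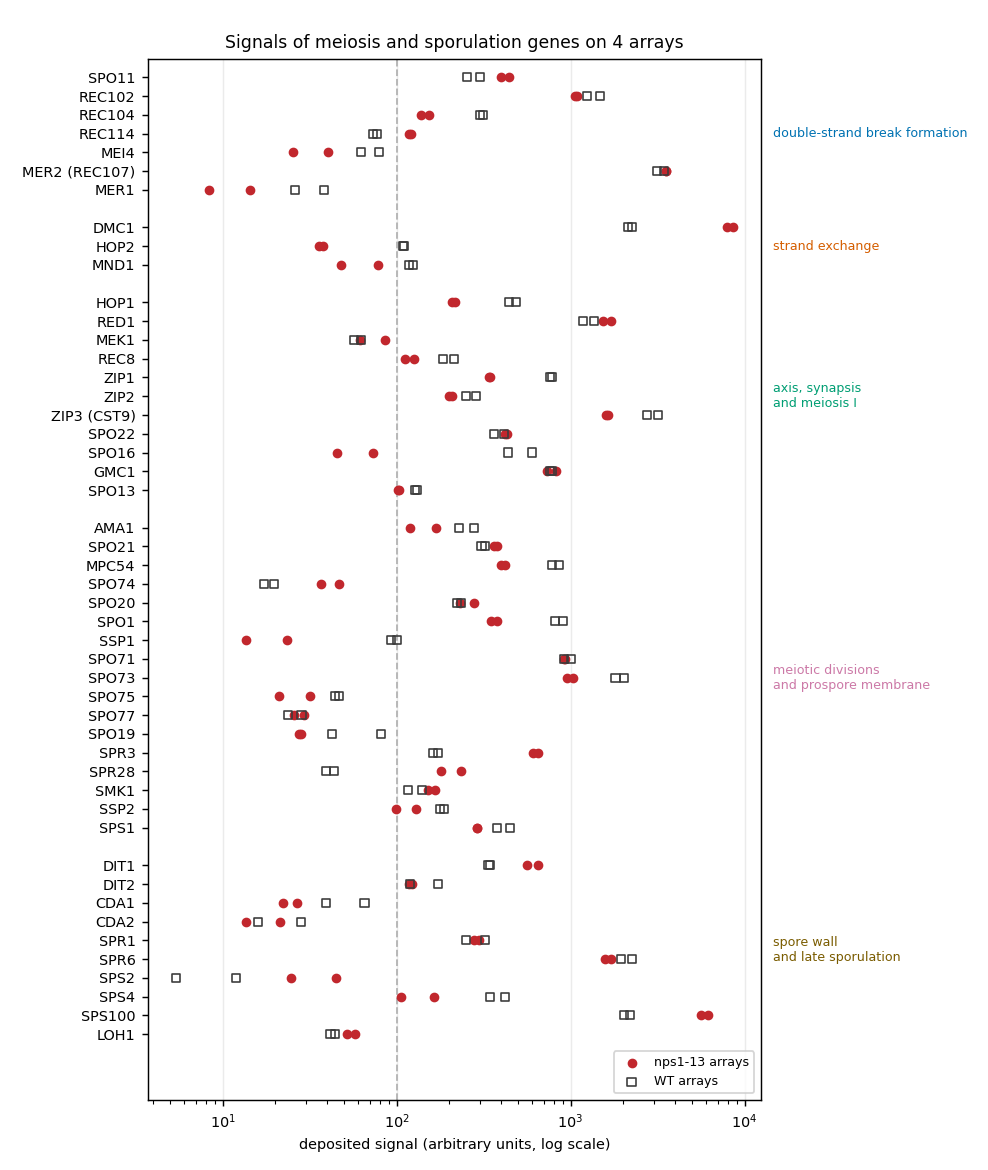
Deposited signal (arbitrary units, log axis) of each of the 48 members on the 2 nps1-13 arrays (filled circles) and the 2 WT arrays (open squares), grouped by role, with a dashed line at 100. DMC1, SPR3 and SPS100 lie to the right of their WT points in nps1-13 and SPO16 to the left, and 12 members have means under 100 in both strains.

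In nps1-13, 20 members were higher, 12 were lower and 16 did not pass the test. Among all genes 42.7% were called higher and 34.6% lower, so the members were called higher about as often as all genes and lower no more often than all genes. The median log2 fold change was 0.14 over the members and 0.07 over all genes, and members ran from -2.68 (SPO16) to 2.79 (SPR28). The ratio of mean centred signals was above 2 for 9 members and below 0.5 for 5, whereas 4.88% of all genes were above 2 and 4.96% below 0.5. Genes with low signals in general passed these ratios more often. Among the 152 genes with a mean signal under 100 over the 4 arrays, 21.1% were above 2 and 8.55% below 0.5, and 3 of the 15 members in that range were above 2 and 3 below 0.5. Between 100 and 300, where 14.2% of 155 genes were above 2 and 9.68% below 0.5, these counts were 1 and 2 of 13 members. Between 300 and 1000 they were 3 and 0 of 12 members, against 5.66% and 9.58% of 689 genes, and from 1000 up 2 and 0 of 8 members, against 3.86% and 3.93% of 4347 genes. Thus after centring DMC1, SPS100, SPR3, DIT1 and SPO11 were above 2 in ranges of signal where few genes were. As deposited, DMC1, SPS100 and SPR3 stayed above 2, but DIT1 and SPO11 did not (log2 fold changes of 0.83 and 0.60).

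**Figure D2:**
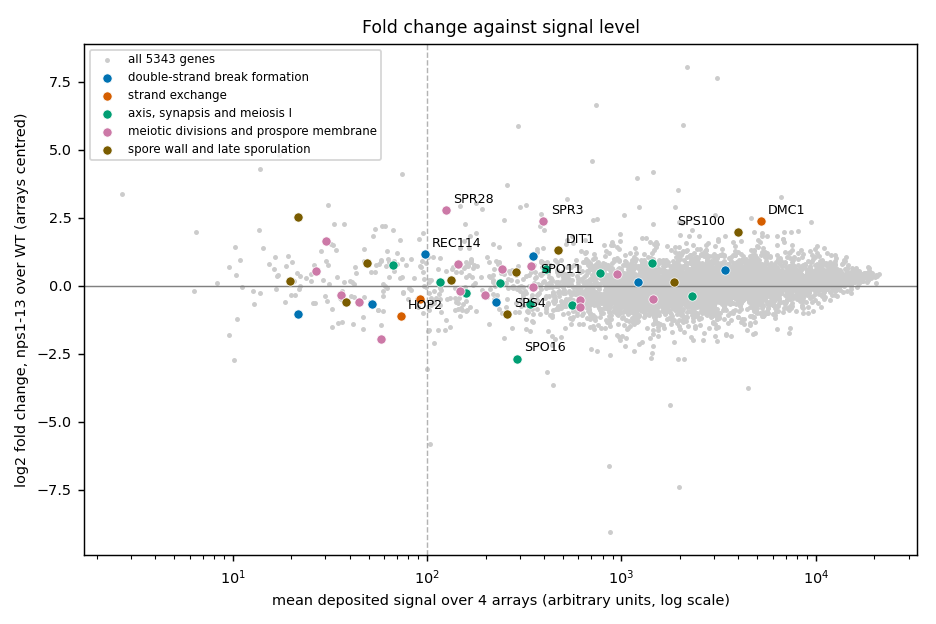
Log2 fold change (nps1-13 over WT, arrays centred) against the mean deposited signal over the 4 arrays (log axis), for all 5343 genes in grey and the 48 members in the colour of their role. The spread of all genes widens toward low signals. DMC1 and SPS100, at 2.38 and 1.96, have mean signals above 1000, where 3.86% of all genes had a ratio above 2 and the highest log2 fold change was 8.05.

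The direction of the calls depended in part on the scaling. With the arrays centred, as deposited, scaled to 1 trimmed mean and after quantile normalization alike, 10 members were called higher (SPO11, REC114, DMC1, RED1, SPO74, SPR3, SPR28, DIT1, SPS2 and SPS100) and 12 lower (REC104, MER1, HOP2, HOP1, ZIP1, ZIP3, SPO16, MPC54, SPO1, SSP1, SPO73 and SPS4). The other 10 of the 20 higher calls were not made as deposited, where 10 members were called higher and 24 lower, against 9.41% and 64.3% of all genes. After quantile normalization 22 members were called higher and 16 lower, against 36.4% and 37.7% of all genes. Compared with centring, the deposited scale lowers every log2 fold change by 0.48, and the trimmed-mean scale by a smaller constant. Lower calls were thus favoured on those scales, and among these scalings only quantile normalization could test whether they held. The share of all genes called alike on every scaling was not counted, so the 10 and 12 members lack a background. A total of 10 called members, 7 higher and 3 lower, met 3 further conditions and are described in full by role below. These were a log2 fold change of at least 1 in size, a mean of at least 100 in 1 strain or both, and arrays not overlapping between the strains. The same rule held for 489 of all 5343 genes, 233 higher and 256 lower. Arrays did not overlap after centring for 25 members higher and 17 lower, against 49.0% and 40.3% of all genes, and as deposited for 15 higher and 25 lower, against 13.6% and 72.5% of all genes. The ratio of mean signals as deposited was above 2 for 6 members and below 0.5 for 12, against 1.98% and 16.7% of all genes.

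**Figure D3:**
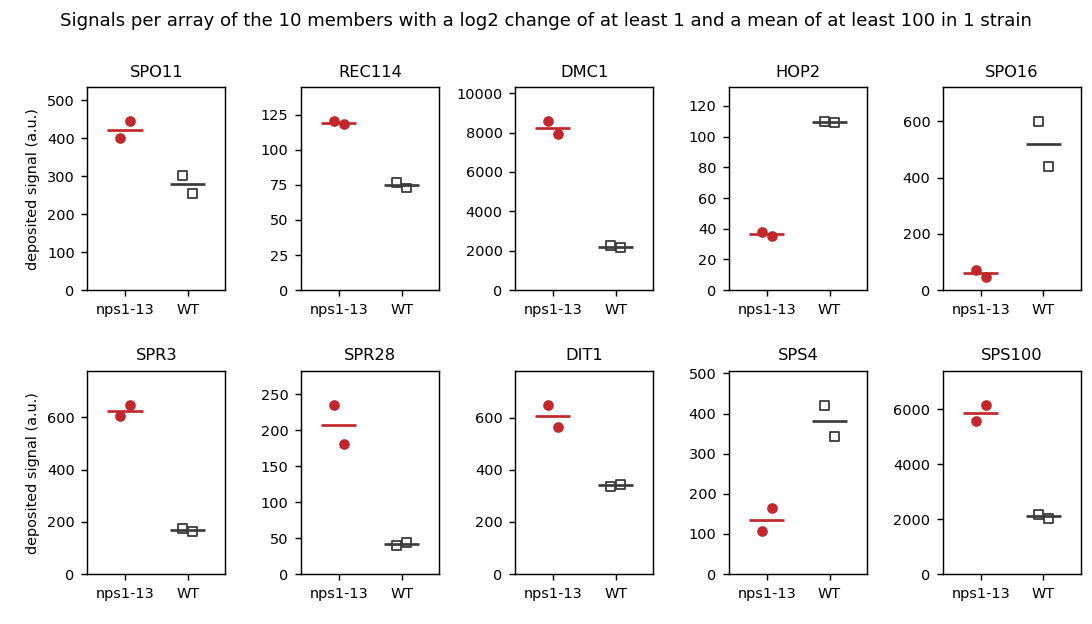
Deposited signal (arbitrary units, linear axis from 0) of the 10 members described in full, with 1 point per array and a line at the mean of each strain (n = 2 arrays). DMC1, SPR3, SPR28, DIT1, SPS100, SPO11 and REC114 are higher in nps1-13, and SPO16, HOP2 and SPS4 are lower.

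Meiotic recombination begins with double-strand breaks made by Spo11, a topoisomerase-like protein, with accessory proteins that include Rec102, Rec104, Rec114, Mei4 and Mer2. SPO11 (YHL022C) had signals of 399.4 and 445 on the nps1-13 arrays, against 302.1 and 254.8 on the WT arrays. Its log2 fold change was 1.08 ± 0.12 (SE, limma adjusted p = 2.56e-05) and 0.60 as deposited. REC114 (YMR133W) had 120.4 and 118.4 in nps1-13, against 77 and 72.8 in WT, with a log2 fold change of 1.15 ± 0.18 (SE, limma adjusted p = 2.56e-04). Both genes were higher on each nps1-13 array than on each WT array before any centring, although the WT signals of REC114 were under 100. The other break genes differed in direction and in how far they held across scalings. REC104 was lower, with 153.8 and 138.2 in nps1-13, against 313.7 and 302.1 in WT (log2 fold change -0.60, standard error 0.13). MER2, named REC107 in RefSeq, had 3555.4 and 3532.4 in nps1-13, against 3450.5 and 3132.8 in WT, and its log2 fold change of 0.58 was 0.11 as deposited, where it did not pass. REC102, with 1054.6 and 1092.7 in nps1-13 and 1471.5 and 1242.5 in WT, had no settled direction: it did not pass at 0.14 and was called lower as deposited (-0.33) and higher after quantile normalization (0.31). MEI4 did not pass at -0.66 and was called lower on the other 3 scalings (-1.13 as deposited), and MER1, a splicing factor for meiotic transcripts, was called lower at -1.05 with signals of 14.3 and 8.4 in nps1-13, against 38.3 and 26.2 in WT. MER1 did not pass with 32 added to every signal, with the replicate block or without any 1 of 3 arrays (WT replicate 1, WT replicate 2 or nps1-13 replicate 2; adjusted p = 0.199, 0.0571 and 0.148 from limma).

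Strand exchange is carried out by Dmc1, a meiosis-specific recombinase, with the Hop2-Mnd1 heterodimer as its partner. DMC1 (YER179W) had 8575.5 and 7899.5 in nps1-13, against 2268.5 and 2144.9 in WT. Its ratio of mean centred signals was 5.19 and its log2 fold change 2.38 ± 0.047 (SE, limma adjusted p = 7.43e-10), and over the other scalings, filters, fits and left-out arrays the log2 fold change ran from 1.90 to 2.41. The DMC1 arrays did not overlap between the strains either as deposited or after centring, whereas neither of its partner genes was called higher. HOP2 (YGL033W) was lower, with 37.6 and 35.6 in nps1-13, against 110.1 and 109.5 in WT. The log2 fold change of HOP2 was -1.11 ± 0.22 (SE, limma adjusted p = 0.00103), and it was -0.58 with 32 added to every signal. MND1, with 78.3 and 48 in nps1-13 and 117.7 and 124.1 in WT, did not pass after centring (log2 fold change -0.50, adjusted p = 0.0797 from limma), but was called lower as deposited (-0.98), with 1 trimmed mean (-0.63) and after quantile normalization (-0.66).

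The chromosome axis holds Hop1, Red1, the kinase Mek1 and the cohesin subunit Rec8, and the synaptonemal complex is built on it from the filament protein Zip1 with Zip2, Zip3, Spo22 (Zip4) and Spo16. Together with GMC1 and SPO13 these made 11 genes, with a median log2 fold change of 0.09. Of the 11, 4 were higher, 4 lower and 3 did not pass, against 42.7% higher and 34.6% lower among all genes. On the deposited scale 1 was higher and 6 were lower, where 9.41% of all genes were higher and 64.3% lower. SPO16 (YHR153C) showed the largest decrease of all members. Its signals were 73.4 and 45.3 on the nps1-13 arrays, against 601.1 and 439.1 on the WT arrays. The log2 fold change was -2.68 ± 0.21 (SE, limma adjusted p = 2.07e-06), and -2.13 with 32 added to every signal, since the nps1-13 signals were under 100. Spo16 works with Zip2 and Spo22, whose genes were not called lower after centring: SPO22 had 418.9 and 432.3 in nps1-13, against 415.6 and 362.3 in WT (log2 fold change 0.61, called higher, but 0.13 as deposited), and ZIP2 did not pass at 0.09 and was called lower at -0.38 as deposited. ZIP1 was lower, with 339.8 and 345.9 in nps1-13, against 781.8 and 759.2 in WT, a log2 fold change of -0.69 (standard error 0.096). HOP1 was lower as well, with 207.6 and 215.7 in nps1-13, against 484.2 and 445.5 in WT, at -0.66 (standard error 0.11). For both genes the WT signals were more than 2 times those in nps1-13 as deposited, but less than that after centring. ZIP3 (CST9 in RefSeq), a SUMO ligase that marks crossover sites, had 1604.2 and 1643.3 in nps1-13, against 3194.6 and 2750.2 in WT, and a log2 fold change of -0.39 (standard error 0.062). RED1 went the other way from its axis partner HOP1, with 1532 and 1698.4 in nps1-13, against 1368.5 and 1173.1 in WT, a log2 fold change of 0.82 (standard error 0.084). GMC1 was called higher at 0.48 but was 0.0065 as deposited, and MEK1 at 0.76 stayed under 100 on all arrays. REC8 and SPO13, which protect and direct sister chromatids in meiosis I, did not pass, at -0.28 and 0.14, although REC8 was called lower on the other 3 scalings (-0.75 as deposited).

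The members that act in the divisions and in growth of the prospore membrane, which wraps each spore, were 17, of which 7 were higher, 4 lower and 6 did not pass, against 42.7% higher and 34.6% lower among all genes. As deposited 3 were higher and 9 lower, against 9.41% and 64.3%. SPR3 and SPR28, which encode the septins made for sporulation, stood apart from the other members of the group. SPR3 (YGR059W) had 604.6 and 646.4 on the nps1-13 arrays, against 173.9 and 162.4 on the WT arrays. Its ratio of mean centred signals was 5.19, with a log2 fold change of 2.37 ± 0.12 (SE, limma adjusted p = 1.02e-07). SPR28 (YDR218C) had 235.1 and 180.3 in nps1-13, against 39.2 and 43.6 in WT, and the largest increase of all members after centring, 2.79 ± 0.21 on the log2 scale (SE, limma adjusted p = 1.37e-06). With 32 added to every signal the increase of SPR28 was 2.17, below those of DMC1 (2.35) and SPR3 (2.19), its WT signals being under 100. The meiotic outer plaque of the spindle pole body, from which the prospore membrane grows, is built from Spo21, Mpc54 and Spo74, and its genes differed in direction. MPC54 was lower, with 420.6 and 398.4 in nps1-13, against 853.4 and 783 in WT (log2 fold change -0.52), and SPO21 was called higher at 0.72, although its deposited signals, 379.9 and 364.8 in nps1-13 and 320.9 and 307.6 in WT, did not differ past the threshold (0.24). SPO74 was called higher at 1.64 with signals of 46.6 and 37 in nps1-13 and 17.4 and 19.8 in WT. SSP1, for a coat protein at the leading edge of the membrane, was called lower at -1.95 with 23.5 and 13.7 in nps1-13 and 100.5 and 93 in WT. The signals of these last 2 genes averaged under 100 in both strains, so the sizes of their changes are not resolved. SPO1, which encodes a phospholipase-like protein, and SPO73, needed for membrane extension, were lower by -0.77 and -0.47 on the log2 scale. SPO1 had 379.5 and 349.8 in nps1-13, against 907.7 and 817.4 in WT. SPO71, a partner of Spo73, went the other way at 0.41, but was -0.06 as deposited. SMK1 and SPO20, for the kinase and the SNARE protein of spore formation, were called higher at 0.78 and 0.63 and not as deposited (0.31 and 0.16). AMA1, the meiotic activator of the anaphase-promoting complex, SSP2, SPS1, SPO19, SPO75 and SPO77 did not pass, with log2 fold changes of -0.59 to 0.55. As deposited all of these but SPO77 were called lower (-0.83 for AMA1, -0.69 for SSP2, -0.51 for SPS1, -1.07 for SPO19 and -0.81 for SPO75), and AMA1 was so with 1 trimmed mean and after quantile normalization too.

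The spore wall is laid down last, with an outer layer of dityrosine made by Dit1 and Dit2 over chitosan made by the chitin deacetylases Cda1 and Cda2. Of the 10 members of this group, 5 were higher, 1 was lower and 4 did not pass, against the same 42.7% and 34.6% of all genes. As deposited 3 were higher and 3 lower, against 9.41% and 64.3% of all genes. SPS100 (YHR139C), for a protein that matures the wall, had 5585.5 and 6159.1 in nps1-13, against 2183.7 and 2018.2 in WT. Its log2 fold change was 1.96 ± 0.071 (SE, limma adjusted p = 2.11e-08), and it ran from 1.48 to 2.08 over the other scalings, filters, fits and left-out arrays. DIT1 (YDR403W) had 648.5 and 563 in nps1-13, against 337.5 and 343.1 in WT, and a log2 fold change of 1.31 ± 0.10 (SE, limma adjusted p = 2.38e-06). For both genes every nps1-13 array was above every WT array before centring. SPS4 (YOR313C) was lower, with 106.2 and 164 in nps1-13, against 421 and 342.9 in WT. Its log2 fold change of -1.05 ± 0.21 (SE, limma adjusted p = 0.00123) was -0.69 without nps1-13 replicate 1 and -1.41 without nps1-13 replicate 2. SPR1, an exo-glucanase gene, was called higher at 0.50, but was 0.02 as deposited and did not pass without WT replicate 2 (adjusted p = 0.0646 from limma). SPS2 was called higher at 2.52 with signals of 44.8 and 24.7 in nps1-13, against 5.4 and 12 in WT, and LOH1 (OSW4) at 0.83, both under 100 on every array. The log2 fold change of SPS2 was 1.88 without WT replicate 1, 3.17 without WT replicate 2 and 1.17 with 32 added to every signal. CDA1, CDA2 and DIT2 did not pass, at -0.58, 0.17 and 0.23, and CDA1 was called lower as deposited (-1.06). SPR6 did not pass at 0.12 and was lower as deposited (-0.35).

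**Figure D4:**
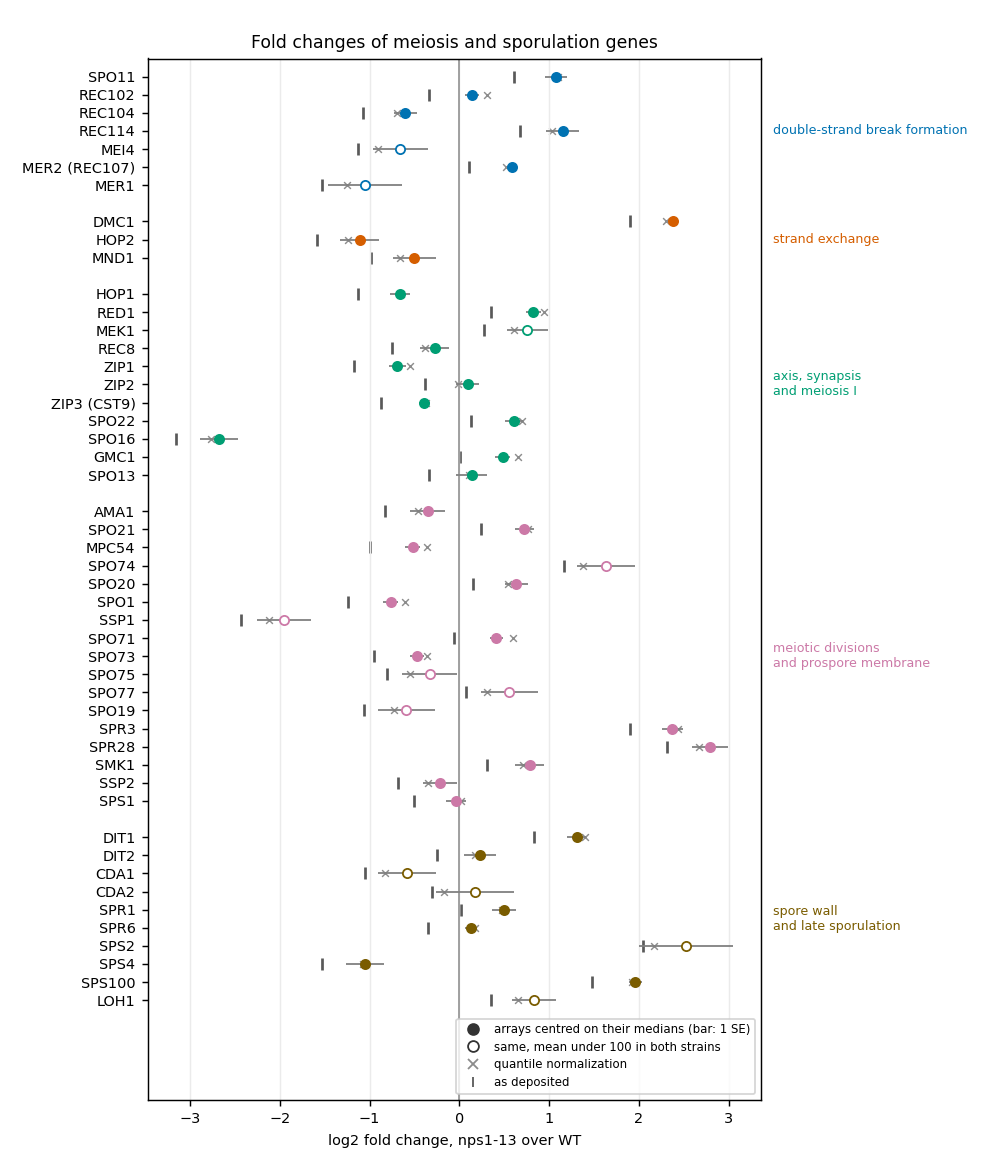
Log2 fold change (nps1-13 over WT) of the 48 members by role, with the arrays centred on their medians (circles, open where the mean signal was under 100 in both strains; bars are 1 standard error), after quantile normalization (crosses) and as deposited (ticks). Among members with a mean of at least 100 in 1 strain, SPR28, SPR3, DMC1 and SPS100 lie far right and SPO16 far left on each scale. SPS2 and SSP1, drawn as open circles, also lie far right and far left. Many members with small changes cross 0 as deposited.

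By the gene order of R64, 3 pairs of members are direct neighbours. DIT1 and DIT2, on opposite strands by their locus tags YDR403W and YDR402C, had log2 fold changes of 1.31 (standard error 0.10) and 0.23 (standard error 0.18), and DIT2 had 123.3 and 117.9 in nps1-13, against 172.5 and 118.8 in WT. HOP1 (YIL072W) and SPO22 (YIL073C), also on opposite strands, had -0.66 and 0.61. SPS1 and SPS2 had -0.03 and 2.52, with SPS2 under 100 on every array. Differences between the fold changes of such a pair were not tested. Around the 10 members described in full, 17 neighbouring genes were measured, of which 10 were called in the direction of the member and 0 had a log2 fold change of at least 1 in that direction. Calls are common among all genes (42.7% higher and 34.6% lower), and 5 of the 10 had the opposite sign as deposited. The neighbours of DMC1, PDA1 and the sporulation gene ISC10, were at 0.27 and 0.34 (-0.21 and -0.13 as deposited), and those of SPO16, SPO12 and RTT107, at -0.26 and -0.75 (-0.74 and -1.22 as deposited). A noncoding RNA of the same table overlaps ZIP2 (RME3) and SPS100 (SUT169), and the sources used here do not say how the probe sets of these 2 genes treat it.

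Of the other genes of the meiotic programme, in 4 further lists, 88 of 91 were measured. In nps1-13, 45 were higher, 23 lower and 20 did not pass, against the 42.7% and 34.6% of all genes given above. As deposited 15 were higher and 40 lower, against 9.41% and 64.3% of all genes. Among 16 regulators of meiotic entry 8 were higher and 6 lower, and as deposited 3 were higher and 10 lower, beside the same shares of all genes. IME4, which encodes the methyltransferase that meiotic entry needs in diploids, had 12.4 and 12.4 on the nps1-13 arrays, against 1749.9 and 1677.9 on the WT arrays, and a noncoding RNA of the gene table (RME2) overlaps it. Its log2 fold change was -6.63 ± 0.15 (SE, limma adjusted p = 1.33e-09), and -4.83 with 32 added to every signal. IME1, the master inducer, was called higher, with 651.9 and 486.1 in nps1-13, against 448.7 and 373.4 in WT (log2 fold change 0.94, standard error 0.12, and 0.46 as deposited). IME2, the kinase that acts downstream, had 3107.8 and 2657.8 in nps1-13, against 2904 and 2650.2 in WT, so that its arrays overlapped as deposited (log2 fold change 0.53 after centring and 0.05 before). NDT80, the activator of middle genes, was lower, with 517.7 and 501.6 in nps1-13, against 1110.1 and 1008 in WT (-0.58, standard error 0.078). SLZ1, for a partner of Ime4, and RIM9, of the pH-sensing Rim pathway that promotes meiosis, were higher at 1.12 and 1.16, and RIM13, for the protease of that pathway, was lower at -0.96.

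Among 11 repressors of meiotic genes 7 were higher, 2 lower and 2 did not pass, against 42.7% higher and 34.6% lower among all genes. As deposited 3 were higher and 5 lower, against 9.41% and 64.3% of all genes. RME1, a repressor of IME1 that is itself repressed by a1 and α2 and is also counted with the markers above, had 3108.1 and 3106.9 in nps1-13, against 1673.7 and 1403.1 in WT, a log2 fold change of 1.50 (standard error 0.062). XBP1, a stress-induced repressor, had 7765.4 and 7725.2, against 2989.3 and 2704.2 in WT (1.92, standard error 0.049). UME6 was higher at 0.89 and SUM1 lower at -0.35, with 1730.8 and 1755.5 in nps1-13, against 3368.1 and 2829.1 in WT. HST1, a partner of Sum1, was called higher at 0.40 and was -0.07 as deposited.

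The other genes of meiotic recombination and chromosomes, 26 in number, held 10 higher and 8 lower, against 42.7% and 34.6% of all genes. As deposited they held 3 higher and 13 lower, against 9.41% and 64.3% of all genes. MSH5, for a crossover protein that works with the Zip proteins, was lower, with 250.6 and 287 in nps1-13, against 1446.9 and 1315.6 in WT (log2 fold change -1.89, standard error 0.11). RDH54, which encodes a translocase that acts with Dmc1, was higher, with 1267 and 1190 in nps1-13, against 602 and 515.1 in WT (1.62, standard error 0.076). CSM4, for telomere-led chromosome movement, and MND2, for an inhibitor of the Ama1 complex, were higher at 1.10 and 0.68, MND2 not as deposited (0.21). Among 35 other genes of spore formation 20 were higher and 7 lower, against the same 42.7% and 34.6%, with a median of 0.45. As deposited 6 were higher and 12 lower, with a median of -0.02, against 9.41% higher and 64.3% lower among all genes. SHC1, an activator of the spore wall chitin synthase, had 1798.5 and 1817.8 in nps1-13, against 774.5 and 700.3 in WT (1.77), SPS22, a relative of SPS2, was at 1.82 with 268.1 and 211.2 against 105.8 and 83.6 in WT, and SGA1, the glucoamylase of sporulation, at 1.43. MIP6, for an RNA-binding protein, was lower, with 50.5 and 43.6 in nps1-13, against 194.7 and 204.1 in WT (-1.61). Thus in both lists, as among the members, genes of the same process went in opposite directions.

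**Figure D5:**
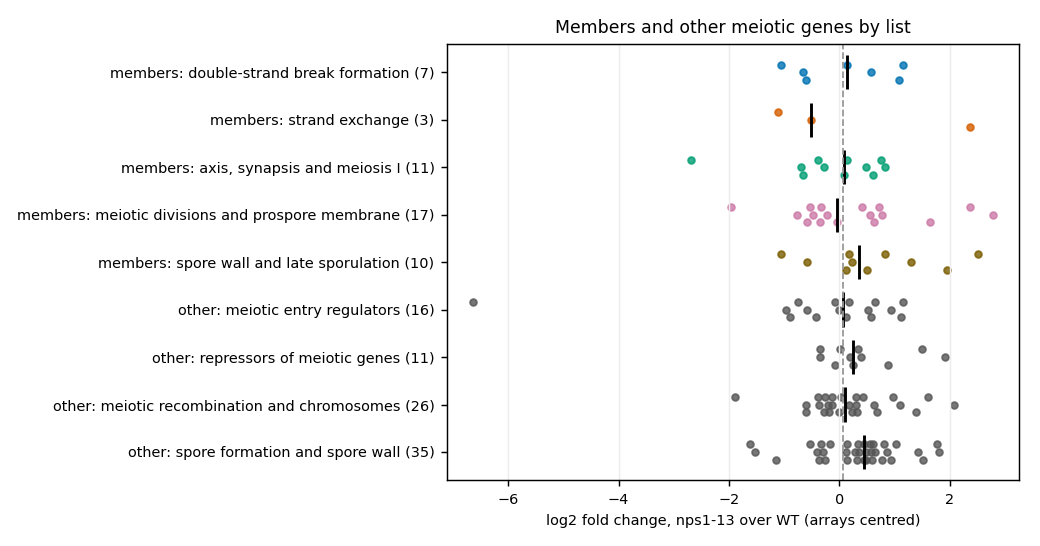
Log2 fold change (nps1-13 over WT, arrays centred) of each gene of the 5 role groups of members (coloured) and of 4 lists of other meiotic genes (grey), with the number measured in brackets, a black line at the median of each list and a dashed line at the median of all genes (0.07). Each list holds genes on both sides of 0, and IME4 is the point at the far left.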

How the data were processed

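Total RNA of each strain was hybridized as biotin-labelled cRNA to Affymetrix Yeast Genome 2.0 arrays. The authors made the deposited intensity of each probe set with GCOS, which the submitters' processing notes also name, by global scaling at its defaults. Column medians and trimmed means differ between arrays, so the deposited values are not on 1 target, and each array was centred on its median log2 signal over 5558 probe sets before testing. Such scaling sets how many genes appear lower or higher.

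Platform annotation and the RefSeq R64 gene table named 5345 probe sets (5343 genes, the brighter set kept for 2 genes), and 213 are unnamed here. No detection calls were used, and the number of arrays limits the precision. Testing used limma 3.58.1 under R 4.3.3 (lmFit, then eBayes with a trend, 7.41 prior degrees of freedom) with Benjamini-Hochberg adjustment over 5343 genes. The fit was tested on simulated data in which far fewer genes changed than were called here. The simulated arrays had no shift between them, so the choice of scaling was not tested. Lists are described by counts and medians, with no list test. Members and lists were chosen with earlier results of these data known.

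Described in full were members with an adjusted p under 0.05, a log2 fold change of at least 1 in size, a mean of at least 100 in 1 strain and arrays that do not overlap. The other members are given by count and example. In the other lists the 4 largest changes with a mean of at least 100 are named, besides IME1, IME2, IME4, NDT80, UME6, RME1 and SUM1; a gene named beyond this was chosen after its values were seen. Alternatives were the deposited scale, scaling to 1 trimmed mean (2% off each end), quantile normalization, 32 added to every signal, a filter that keeps mean signals from 100 or from 200 up, no trend, the replicate number as a block, and leaving out each array. Promoter and protein sequences were not used here, and a planned motif search was not run. Tables and figures were made in Python 3.11.15 with pandas 2.3.3 and matplotlib 3.10.9.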

Additional observations from a re-analysis of the deposited data

How the results depend on the processing

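Signals as deposited moved the counts most, to 503 genes higher and 3435 lower among all genes, 10 members higher and 24 lower, 12 members with a ratio below 0.5, a member median of -0.34, and 15 other meiotic genes higher and 40 lower. That median was 0.01 with 1 trimmed mean, and 0.28 with a mean signal of at least 200. The same filter left 26 members to test, of which 13 were called higher, 5 had a ratio above 2 and 2 below 0.5. Among all genes it left 2205 called higher and 1801 lower. At 100, with 33 members tested, 2 were below 0.5, and with 32 added 1. The shares of all genes past these ratios were not counted under the filters or with 32 added. Leaving out each array gave 1957 to 2246 higher and 1614 to 1818 lower among all genes, 19 to 20 members higher and 11 to 15 lower, 8 to 9 members above 2, and 3 (without WT replicate 1) to 5 below 0.5, with medians of 0.08 to 0.19, and 42 to 47 other meiotic genes higher and 21 to 23 lower.

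Signs changed as deposited for CDA2 (-0.31), DIT2 (-0.25), HST1 (-0.07), REC102 (-0.33), SPO13 (-0.34), SPO71 (-0.06), SPR6 (-0.35) and ZIP2 (-0.38); with 1 trimmed mean for SPR6 (-0.01) and ZIP2 (-0.04); after quantile normalization for CDA2 (-0.17), SPS1 (0.02) and ZIP2 (-0.02); and with 32 added for SPO75 (0.06) and SPS1 (0.0028). Leaving out an array changed the sign of SPS1 (range -0.09 to 0.03), CDA2 (-0.20 to 0.54) and SSP2 (-0.45 to 0.03); the cause was not tested. The 10 members described in full kept direction under every one of these settings in which they were tested. Their limma adjusted p stayed under 0.05 in the settings that kept all 4 arrays. The log2 fold change fell under 1 in size in at least 1 setting for 5 of them. These were SPO11 (0.60), REC114 (0.67), DIT1 (0.83), HOP2 (-0.58) and SPS4 (-0.69). For the members of the 10 that were called lower, the deposited and trimmed-mean scales were no test, since both lower every log2 fold change by a constant.

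With the replicate number as a block, 20 members were called higher and 11 lower, the call of MER1 being lost. The labels share only the number, and same-numbered arrays deviated with a correlation of -0.124. A crossed block, added after seeing the data, called 20 higher and 15 lower. The shares of all genes called with either block are not given here, so these member counts lack a background.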
